A study of Mus musculus with 2 samples.

Results

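The 10 genes described here encode proteins that platelets and their parent cells, the megakaryocytes, use to do their work: Pf4, Vwf, Gp1bb, Gp5, Gp9, Itga2b, Itgb3, Sdpr, Tuba8 and Apoe. They were chosen by symbol, and all 10 were found among the 27998 genes listed for both libraries. The study sequenced RNA of single bone marrow haematopoietic stem and progenitor cells (HSPCs) of 3-month-old mice, sorted as lineage-negative cells with c-Kit and Sca-1 at the surface (LSK). A first library came from Trmt6 WT cells, which the labels give as Trmt6fl/fl, that is floxed and without recombinase. The other came from Trmt6 cKO cells, given as Trmt6fl/fl, MX1-cre, in which an interferon-inducible recombinase deletes the floxed exons. Both groups thus share the floxed alleles by the labels. The study instead describes controls of the Trmt6+/+ genotype, and the recombinase and injections of its inducer pIpC in both genotypes. The number of mice behind a library was not given in the sources used here. Genotype and library cannot be told apart, and no difference below has a replicate check or a test. Values in parentheses are 95% intervals, which take in counting error and nothing else.

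Platelets are shed by megakaryocytes, which arise from stem cells directly or through megakaryocyte-erythroid progenitors. Megakaryocyte-primed progenitors already transcribe genes of the mature cell: granule cargo released on activation, the GPIb-IX-V receptor that catches von Willebrand factor, and the integrin that binds fibrinogen and links platelets to each other. In a pool of sorted progenitors, a lower level of such a gene can come from fewer cells that transcribe it or from less of it in each cell. Summed levels do not separate these, so the level, the share of cells and the detection of several members in one cell are given in turn.

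Both libraries differed in depth and in make-up. The kept cells numbered 8148 in WT and 8477 in cKO, with 42271765 and 87685708 unique molecular identifiers (UMIs), each UMI standing for 1 captured transcript. A median WT cell held 4198 UMIs and a median cKO cell 10114 UMIs, and 24 barcodes occurred in both libraries. Shares of cells were therefore taken after each cell had been thinned to 2000 UMIs, which left 7951 WT and 8373 cKO cells. Trmt6, the deleted gene, stood at 63.5 (WT) and 50.3 (cKO) CPM, that is UMIs of the gene in 1000000 UMIs, but 3-prime reads need not cover the deleted exons, so this does not check the deletion. For Kit, which encodes the sorted antigen c-Kit, the levels were 62.9 and 21.5 CPM, and for Ly6a, which encodes Sca-1, 33.3 and 142 CPM. Cells with 3 or more granulocyte-monocyte genes made up 37.7% of WT and 2.40% of cKO cells, and cells with 3 or more stem cell genes, a list that holds Ly6a, 2.45% and 5.18%. The part of depth, sort and make-up in the results below was not tested, except where values at equal depth or within chosen cells are given.

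The sequence just before the gene start is shown for 5 members. It is the 250 bases before the start of Pf4 (chr5:90772185-90772434, plus strand), Gp1bb (chr16:18622404-18622653, minus strand), Gp5 (chr16:30310782-30311031, minus strand), Sdpr (chr1:51288876-51289125, plus strand) and Gp9 (chr6:87777820-87778069, plus strand), taken from RefSeq on GRCm38.p6. Pf4, Gp1bb, Gp5 and Sdpr are shown because their summed levels were lower in cKO by 2 or more on the log2 scale, and Gp9 because it shares a receptor with Gp1bb and Gp5 and differed less than they did. Capitals mark GATAA, which GATA factors such as GATA1 recognise, and GGAAG, which ETS factors such as FLI1 recognise, each searched on both strands (so that TTATC and CTTCC also count). Marked motifs did not overlap each other in these windows.
Pf4: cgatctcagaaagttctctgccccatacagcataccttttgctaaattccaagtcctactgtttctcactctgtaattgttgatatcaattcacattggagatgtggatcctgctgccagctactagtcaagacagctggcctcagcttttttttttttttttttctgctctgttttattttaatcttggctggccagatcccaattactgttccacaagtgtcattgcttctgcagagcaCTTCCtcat
Gp1bb: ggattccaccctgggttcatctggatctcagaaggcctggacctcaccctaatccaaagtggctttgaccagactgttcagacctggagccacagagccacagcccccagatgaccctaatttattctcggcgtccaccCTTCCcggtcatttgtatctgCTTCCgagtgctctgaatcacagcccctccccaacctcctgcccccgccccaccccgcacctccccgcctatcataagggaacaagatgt
Gp5: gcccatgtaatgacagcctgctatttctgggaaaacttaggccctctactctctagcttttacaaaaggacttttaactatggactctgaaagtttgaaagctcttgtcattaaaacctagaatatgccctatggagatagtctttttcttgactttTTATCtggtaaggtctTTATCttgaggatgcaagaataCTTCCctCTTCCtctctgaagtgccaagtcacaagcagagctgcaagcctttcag
Sdpr: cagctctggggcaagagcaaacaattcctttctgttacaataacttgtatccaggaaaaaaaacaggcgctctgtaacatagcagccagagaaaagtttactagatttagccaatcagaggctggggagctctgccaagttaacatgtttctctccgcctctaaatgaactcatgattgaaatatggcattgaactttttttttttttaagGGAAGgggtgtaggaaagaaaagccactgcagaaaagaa
Gp9: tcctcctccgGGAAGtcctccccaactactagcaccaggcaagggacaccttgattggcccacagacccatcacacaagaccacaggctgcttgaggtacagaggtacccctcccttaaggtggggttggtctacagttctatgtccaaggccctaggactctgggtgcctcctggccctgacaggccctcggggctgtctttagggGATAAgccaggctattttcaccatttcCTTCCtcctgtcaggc

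A window was found for 8 members, Sdpr under its newer symbol Cavin2, and none for Itgb3 and Vwf. GATAA occurred in 2 of the 8, Gp5 and Gp9, against 22.6% of the 32851 RefSeq windows of this length. Other forms of the GATA motif, such as GATAG, were not searched, so a window without GATAA can hold one. GGAAG occurred in all 8, against 64.1% of those windows. These letters are a description of the sequence and do not show that a factor binds there.

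Over all kept cells, each of the 10 members was lower in cKO than in WT, with a median log2 ratio of cKO over WT of -1.63. Among the 9142 genes at 5 CPM or more in either library the median was -0.07, and 5.18% were lower in cKO by 1 or more on the log2 scale. Of the 8 members that reached 5 CPM, 5 were lower by that much, but 3 of the 5 (Gp1bb, Gp5 and Sdpr) reached it in WT only, so their count is a description. The members under 5 CPM in both libraries were Itgb3 and Vwf. Gene positions given below are on GRCm38. Pf4 and Apoe supplied 81.1% of the members' UMIs in WT and 75.2% in cKO.

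Pf4 (chr5:90772435-90773383, plus strand) encodes platelet factor 4, a chemokine stored in alpha granules. Its 5412 WT UMIs came to 128 CPM (125 to 131), and its 2757 cKO UMIs to 31.4 CPM (30.3 to 32.6). The log2 ratio was -2.03 (-2.09 to -1.96), or 4.07-fold lower in cKO. Among all genes at 5 CPM or more, 1.56% had a ratio that low or lower. Vwf (chr6:125546774-125686679, plus strand) encodes von Willebrand factor, the granule protein that tethers platelets to injured vessel walls and that also marks platelet-biased stem cells. It stood at 3.00 CPM (2.50 to 3.57) in WT and 2.25 CPM (1.94 to 2.58) in cKO, which gave a log2 ratio of -0.42 (-0.75 to -0.09). The direction did not hold at equal depth: after thinning, the log2 ratio of Vwf was 0.08 (-0.54 to 0.70). The granule genes therefore differed from each other, with Pf4 lower on every scaling tried and Vwf without a settled direction.

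The receptor GPIb-IX-V was represented by Gp1bb, Gp5 and Gp9, which encode its GPIb-beta, GPV and GPIX chains. Gp1bb (chr16:18620317-18622403, minus strand) stood at 15.7 CPM (14.5 to 16.9) in WT and 3.22 CPM (2.85 to 3.61) in cKO, which gave a log2 ratio of -2.29 (-2.49 to -2.08). Of the 2087 bases of Gp1bb, 1902 also belong to exons of Sept5 on the same strand, so its count is uncertain. Sept5 itself held 15 UMIs in WT and 16 in cKO over all barcodes. Gp5 (chr16:30307685-30310779, minus strand) stood at 10.8 CPM (9.80 to 11.8) in WT and 2.67 CPM (2.34 to 3.03) in cKO, with a log2 ratio of -2.01 (-2.25 to -1.78). Gp9 (chr6:87778072-87779768, plus strand) was at 17.4 CPM (16.2 to 18.7) and 11.6 CPM (10.9 to 12.3), and its log2 ratio was -0.58 (-0.72 to -0.44). Over all kept cells Gp9 thus differed between the libraries less than Gp1bb and Gp5, and its interval did not overlap theirs. Gp1ba, which is no member and encodes the GPIb-alpha chain, gave 35 UMIs in WT and 36 in cKO, a ratio of -1.01 (-1.72 to -0.30) on the log2 scale, which overlapped that of Gp9.

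The fibrinogen receptor of platelets pairs the integrin chains alpha-IIb and beta-3, encoded by Itga2b and Itgb3. Itga2b, whose product is the progenitor antigen CD41, lies at chr11:102453297-102470122 on the minus strand. It stood at 24.6 CPM (23.1 to 26.1) in WT and 12.4 CPM (11.6 to 13.1) in cKO, which gave a log2 ratio of -0.99 (-1.12 to -0.87). Itgb3 (chr11:104608000-104670476, plus strand) had few counts, with 111 UMIs in WT and 66 in cKO. These made 2.63 CPM (2.16 to 3.16) and 0.753 CPM (0.582 to 0.958), for a log2 ratio of -1.80 (-2.26 to -1.35).

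The last group holds a membrane protein, a tubulin and a lipid carrier. Sdpr (chr1:51289126-51302960, plus strand; Cavin2 in newer annotation) encodes a caveolar coat protein that is abundant in platelets. It was at 13.03 CPM (11.97 to 14.2) in WT and 2.13 CPM (1.84 to 2.46) in cKO, and its log2 ratio of -2.61 (-2.86 to -2.37) was the lowest of the 10. Tuba8 (chr6:121210696-121226854, plus strand), an alpha-tubulin that platelets use, was at 14.5 CPM (13.4 to 15.7) and 12.2 CPM (11.5 to 13.003), for a log2 ratio of -0.25 (-0.39 to -0.10). The antisense gene Gm15856, with 27 WT and 54 cKO UMIs over all barcodes, overlaps 368 exon bases of Tuba8. Of all genes at 5 CPM or more, 33.5% had a ratio at or below that of Tuba8. Apoe (chr7:19696109-19699188, minus strand) encodes apolipoprotein E, which carries cholesterol and is made by many cell types, progenitors and macrophages among them. Its level was 307 CPM (302 to 312) in WT and 112 CPM (109 to 114) in cKO, which gave a log2 ratio of -1.46 (-1.50 to -1.42). Tuba8 moved with depth: after thinning its log2 ratio was -0.65 (-0.95 to -0.36).

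**Figure D1:**
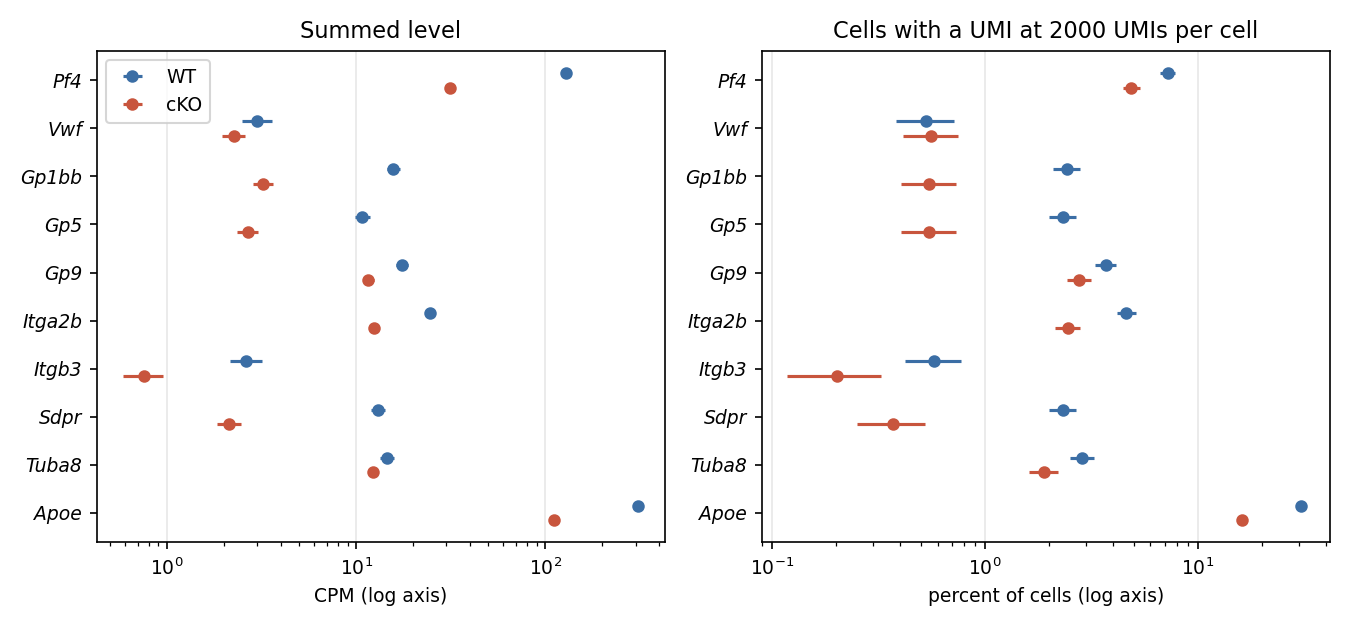
The 10 members in WT (blue) and cKO (red), with the summed level over all kept cells in CPM on the left and the percent of cells with at least 1 UMI, after thinning to 2000 UMIs per cell, on the right, both on log axes with 95% counting intervals. The summed level is lower in cKO for every member, most for Sdpr (13.03 against 2.13 CPM) and least for Tuba8, while the share of cells with Vwf is 0.528% and 0.561%.

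At equal depth, 9 of the 10 members were found in a smaller share of cKO than of WT cells, with the interval of the ratio of shares below 0 on the log2 scale. Pf4 was detected in 574 WT cells, or 7.22% (6.66 to 7.81), and in 409 cKO cells, or 4.88% (4.43 to 5.37). Vwf was the exception, with 42 WT and 47 cKO cells, or 0.528% (0.381 to 0.713) and 0.561% (0.413 to 0.746). The receptor genes split as their levels did: Gp1bb was found in 2.43% of WT and 0.549% of cKO cells, Gp5 in 2.33% and 0.549%, and Gp9 in 3.71% and 2.78%. Itga2b was detected in 4.63% and 2.45% of cells and Itgb3 in 0.579% and 0.203%. Sdpr was detected in 2.33% and 0.370%, Tuba8 in 2.85% and 1.89%, and Apoe in 30.5% and 16.2%. Without thinning the deeper cKO library gave the opposite order for Pf4, at 11.4% of WT and 15.9% of cKO cells, and likewise for Gp9 and Tuba8.

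Free RNA in the droplets sets a floor for these shares, and cells expected to hold few platelet transcripts were used to gauge it. Empty droplets were not used. Progenitors also make Apoe, so Apoe RNA made by these cells is not told apart from free RNA. Among cells with 3 or more lymphoid genes (358 in WT, 172 in cKO, with median depths before thinning of 3785.5 and 7401 UMIs), Pf4 was found in 12 WT cells, or 3.35% (1.74 to 5.78), and in none of the 172 cKO cells, a count that leaves room for up to 1.74% (3 cells of those counted). Gp9 was found in 1.96% (0.790 to 3.99) and 1.16% (0.141 to 4.14) of these cells and Apoe in 8.10% (5.49 to 11.4) and 1.74% (0.361 to 5.01). Each of the other 7 members was found in at most 1 such cell of a library. The thinned shares of Pf4, Itga2b and Apoe over all cells lay above this background in both libraries, while those of Gp9 overlapped its interval. In WT those of Gp1bb, Gp5, Sdpr and Tuba8 were also above it, whereas that of Itgb3 was under its upper bound of 1.55% and that of Vwf, found in none of these cells, under the 0.838% that 0 of 358 cells allows. In cKO none of these 6 members was found, after thinning, in a cell with lymphoid genes, which again allows up to 1.74%. The cKO shares of Gp1bb, Gp5, Itgb3, Vwf and Sdpr lie under this limit, and the interval of Tuba8 (1.61 to 2.20) takes it in. By these thinned shares the 6 could not be told from background. On all UMIs, Tuba8 in cKO was at 3.07 CPM (0.835 to 7.85) in cells with lymphoid genes. Over all kept cKO cells Tuba8 was at 12.2 CPM (11.5 to 13.003), which lay above that interval. For Gp1bb, Gp5, Itgb3, Vwf and Sdpr the corresponding cKO intervals on all UMIs overlapped. Detection in cells with lymphoid genes was higher in WT than in cKO for Apoe. For Pf4 it was higher on all UMIs, with 20 UMIs in these WT cells and 0 in the cKO cells. The shares of Pf4 and Apoe over all cells may thus hold an unequal background.

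The number of Pf4 UMIs in a cell separated the libraries more than the share of cells with any. A single Pf4 UMI was seen in 353 WT and 333 cKO cells, or 4.44% (3.997 to 4.92) and 3.98% (3.57 to 4.42), and these intervals overlap. In WT this share also lies within the interval of the Pf4 background in cells with lymphoid genes. From 2 to 4 UMIs were seen in 122 WT and 69 cKO cells. Cells with 5 or more Pf4 UMIs numbered 99 in WT and 7 in cKO, or 1.25% (1.01 to 1.51) and 0.0836% (0.0336 to 0.172). With 10 or more there were 49 WT cells and 1 cKO cell, and the highest cell held 44 UMIs in WT and 21 in cKO. The difference in Pf4 thus lay mainly in cells rich in Pf4, which held 1245 of the 1912 thinned Pf4 UMIs of WT and 60 of the 563 of cKO. A mean Pf4-positive cell held 3.33 UMIs in WT and 1.38 in cKO.

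Apoe was found in far more cells, and there the shares with a single UMI differed as well. A single Apoe UMI was seen in 1099 WT and 911 cKO cells, or 13.8% (13.1 to 14.6) and 10.9% (10.2 to 11.6), from 2 to 4 in 1012 and 412, and 5 or more in 314 and 32. The mean per positive cell was 2.42 UMIs in WT and 1.53 in cKO. For Pf4 the log2 ratio of the mean over all thinned cells, -1.84, was the sum of -0.56 from the share of positive cells and -1.27 from the UMIs per positive cell, with no correction for background. For Apoe it was -1.57, of which -0.91 came from the share and -0.66 from the UMIs per positive cell. Positive cells mix rich cells with cells of 1 UMI, so fewer rich cells also lower the UMIs per positive cell. The other 8 members had at most 1.25 UMIs per positive cell in either library, and at such levels less RNA per cell also appears as fewer positive cells, so shares alone do not separate these.

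**Figure D2:**
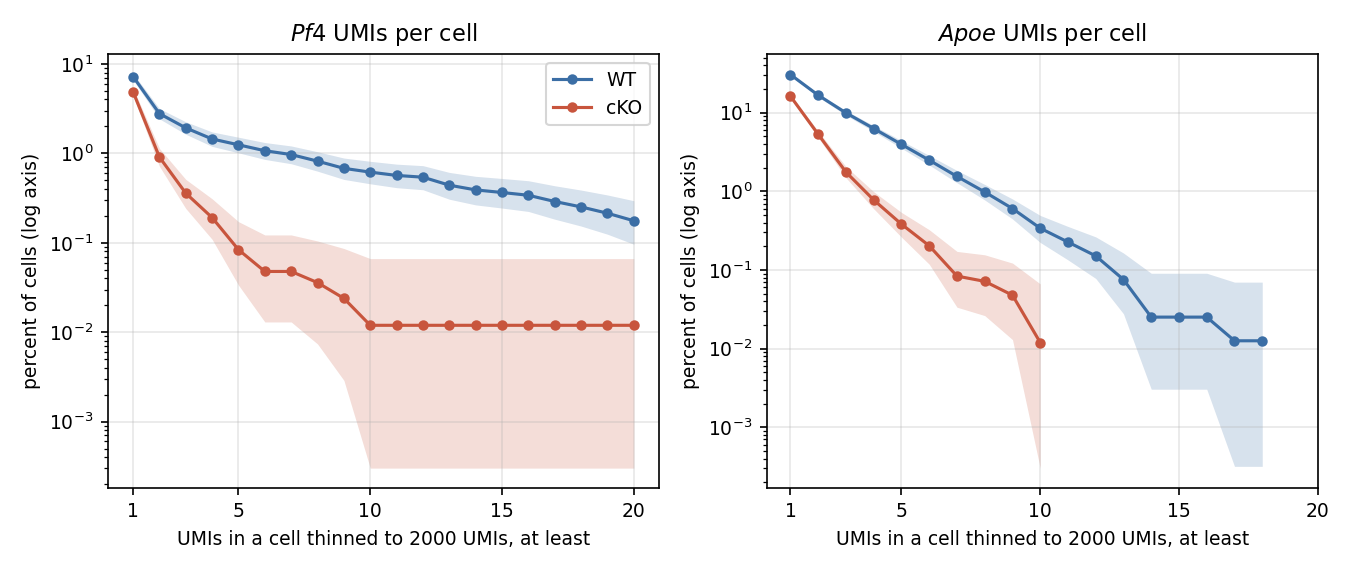
Percent of cells (log axis) with at least the number of UMIs on the horizontal axis of Pf4 (left) and Apoe (right), in WT (blue) and cKO (red) cells thinned to 2000 UMIs; bands are 95% counting intervals. The lines lie further apart at 5 UMIs than at 1: 99 WT and 7 cKO cells held 5 or more Pf4 UMIs, and 314 and 32 cells 5 or more Apoe UMIs.

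Cells with several members were scarcer in cKO. At least 1 member was found in 37.2% of WT and 25.3% of cKO cells, and at least 2 in 976 WT and 355 cKO cells, or 12.3% and 4.24%. At least 3 were found in 399 WT cells, or 5.02% (4.55 to 5.52), and in 61 cKO cells, or 0.729% (0.558 to 0.935), for a log2 ratio of -2.78 (-3.17 to -2.40). At least 4 were found in 151 and 12 cells, at least 5 in 42 and 1, and the most found in a cell was 7 in WT, in 3 cells, and 5 in cKO. Multiplying the shares of the members, as if each were detected independently of the others, would give 72.8 WT and 11.8 cKO cells with at least 3. The observed numbers were 5.48 times the product in WT and 5.17 times in cKO. In both libraries members were thus found together more often than their shares give. Over pairs of members, the median was 3.73 times in WT and 2.39 times in cKO. Cells with several members also enter the shares that are multiplied, so the product does not tell where their lower number in cKO comes from. Apoe was among the members in 348 of the 399 WT and 55 of the 61 cKO cells. Without Apoe, an alternative added after the data were seen, the log2 ratio of the share with 3 or more was -3.40, and without Apoe and Tuba8 it was -4.02. The gap also depended on depth: chosen on all UMIs, the log2 ratio of the share with 3 or more members was -0.44, and at 1000 UMIs per cell it was -3.66.

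**Figure D3:**
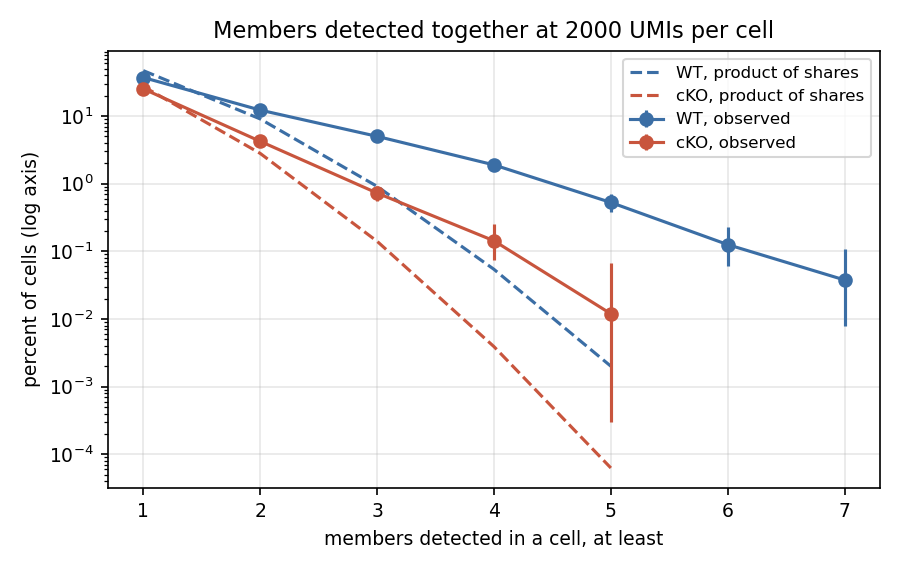
Percent of cells (log axis) with at least the number of members on the horizontal axis, in WT (blue) and cKO (red) cells thinned to 2000 UMIs, with 95% counting intervals; dashed lines give the percent from the product of the shares of the members. The observed lines lie above the dashed ones from 2 members on, and the gap between the libraries, in the dashed lines as well, widens from 37.2% against 25.3% at 1 member to 5.02% against 0.729% at 3.

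Pairs of members were counted in the same way. All 45 pairs were found together in more WT cells than the product of their shares, with a median of 3.73 times that product, and 37 of the 45 in cKO, with a median of 2.39 times. In cKO 8 pairs were in no cell, and just 12 pairs had a product of 5 cells or more, against 27 in WT, so single cKO pairs are poorly measured. Pf4 and Gp1bb were found together in 95 WT and 12 cKO cells, which was 49.2% and 26.1% of the cells with Gp1bb. Within the receptor, Gp1bb and Gp5 were found together in 29 WT and 4 cKO cells, or 6.46 and 15.8 times the product of their shares. Gp5 and Gp9 met in 31 and 3 cells (4.52 and 2.34 times) and Gp1bb and Gp9 in 23 and 4 (3.21 and 3.12 times). The integrin chains Itga2b and Itgb3 shared 4 WT cells and no cKO cell. Gp1bb and Sdpr met in 47 WT and 2 cKO cells, and Pf4 and Apoe in 374 and 107. Relative to the product, the receptor pairs thus had no common direction between the libraries, and their low cKO counts went with low shares of the single genes.

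**Figure D4:**
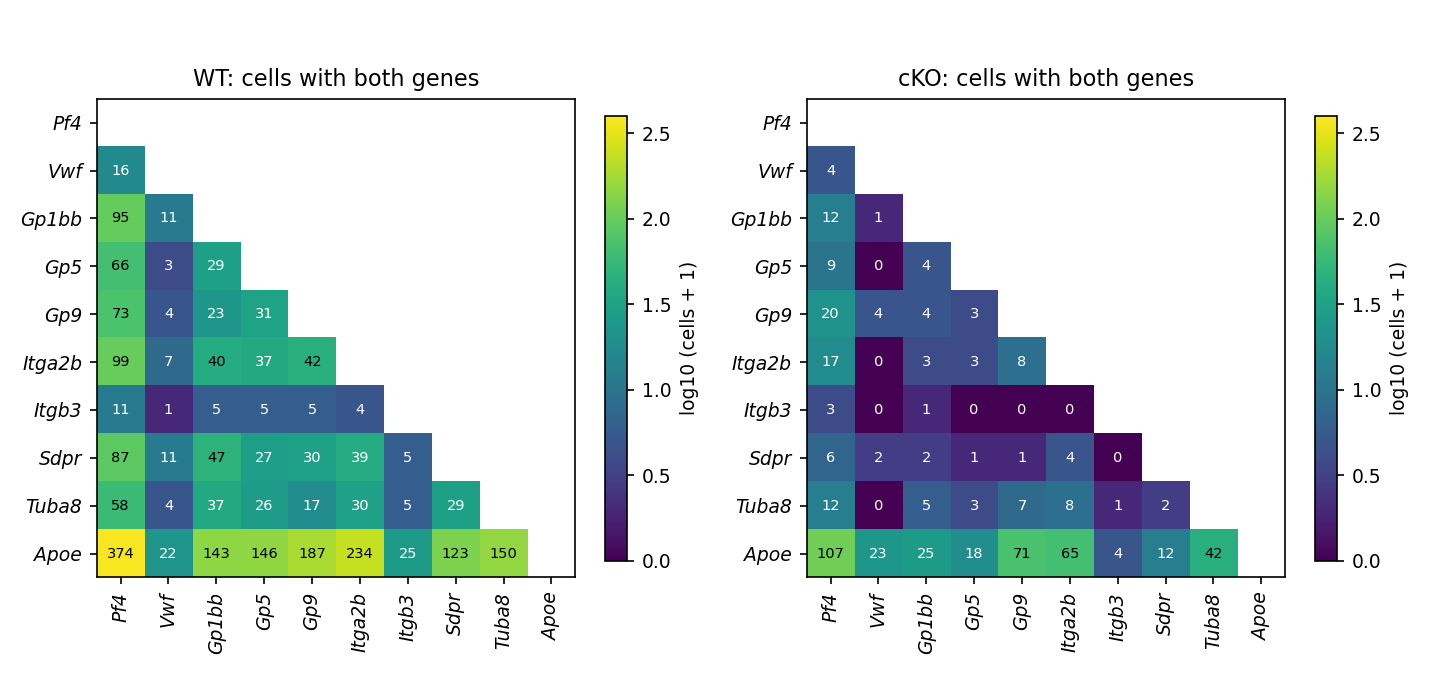
Number of cells in which both genes of a pair had at least 1 UMI, in WT (left) and cKO (right) cells thinned to 2000 UMIs, with color showing log10 of the number plus 1. Pf4 and Apoe are found together in 374 WT and 107 cKO cells, and 8 cKO pairs, all of them with Itgb3 or Vwf, are in no cell.

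Each member was next measured in cells chosen by 2 or more of the 9 others, on all UMIs of those cells. The product of the shares alone gives 722 of the 976 WT and 235 of the 355 cKO cells with 2 or more members, so cells chosen in this way are not shown to be of one kind. Every member was lower in cKO there too, with intervals below 0 for all 10 and a median log2 ratio of -1.57. For scale, in cells with any 2 or more members 6.26% of genes at 5 CPM or more were lower by 1 or more on the log2 scale and the median gene was at -0.09, and 9 of the 10 members were lower by that much in the cells chosen by the others, of which Itgb3 reached 5 CPM in WT only. Pf4 was at 1151 CPM (1116 to 1186) in the 802 WT cells and 197 CPM (180 to 215) in the 251 cKO cells so chosen, a log2 ratio of -2.55 (-2.69 to -2.41). Of the Pf4 UMIs of all cells deep enough to be thinned, these cells held 77.4% in WT and 17.9% in cKO. Sdpr was at 99.8 and 13.2 CPM, a log2 ratio of -2.90 (-3.40 to -2.46), and Gp5 at 71.1 and 18.5 CPM, a log2 ratio of -1.93 (-2.36 to -1.54). The members that differed little over all cells differed more here: Gp9 was at 87.5 and 33.1 CPM, a log2 ratio of -1.40 (-1.75 to -1.07), and Vwf at 21.02 and 8.73 CPM, a log2 ratio of -1.25 (-1.93 to -0.65). Tuba8 differed least, at 61.0 and 41.5 CPM, or -0.55 (-0.88 to -0.24) as a log2 ratio. In the cells with 3 or more of all 10 members, a stricter choice that uses each member itself, the median log2 ratio was -1.24, beside a median gene at -0.05, and 7 members were lower by 1 or more, beside 11% of genes at 5 CPM or more. Pf4 was at -1.70 (-1.85 to -1.55) and Sdpr at -2.41 (-3.13 to -1.82) there, and the interval of Tuba8 at -0.20 (-0.64 to 0.21) took in 0.

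A choice of cells that used no member gave larger differences. Cells with 3 or more of 22 other megakaryocyte genes, among them F2r, Gng11 and Nrgn, made up 730 WT cells, or 9.18% (8.56 to 9.84), and 270 cKO cells, or 3.22% (2.86 to 3.63). In them every member was lower in cKO by 1 or more on the log2 scale, with a median of -2.28, whereas 8.08% of genes at 5 CPM or more were lower by that much and the median gene was at -0.10. Itgb3, with 35 WT and 2 cKO UMIs, reached 5 CPM in WT only, so the count is a description. Pf4 was at 1204 CPM (1164 to 1244) in WT and 74.4 CPM (64.0 to 86.1) in cKO, which gave a log2 ratio of -4.01 (-4.24 to -3.80). Gp1bb was at 118 and 12.3 CPM (log2 ratio -3.23), Sdpr at 102 and 11.1 CPM (-3.18), and Itga2b at 102 and 26.3 CPM (-1.94). Gp9, at -2.31 (-2.82 to -1.85), did not differ less than Gp5, at -2.25 (-2.92 to -1.68), in these cells. Tuba8 and Vwf were the least different here, at -1.31 (-1.79 to -0.86) and -1.37 (-2.18 to -0.67).

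The cells chosen this way were not alike in the libraries. At least 3 members were found in 197 of the 730 WT cells, or 26.99%, and in 8 of the 270 cKO cells, or 2.96%. No member was found in 21.5% of the WT and 52.6% of the cKO cells, and 5.75% and 11.9% also had 3 or more stem cell genes. Fewer megakaryocyte-primed cells among those chosen and less RNA per cell cannot be told apart here. The share of cells with 3 or more other megakaryocyte genes itself turned with depth: on all UMIs, without thinning, its log2 ratio was 0.96 in place of -1.51. In cells with a UMI of Gata1, the transcription factor of the erythroid and megakaryocyte lineage, which were 2.68% of WT and 1.06% of cKO cells, the members' median log2 ratio was -1.18. All 10 were lower, 7 with an interval below 0 and 6 by 1 or more, beside 12.2% of genes at 5 CPM or more. The 6 include Itgb3, with 7 WT UMIs and 1 cKO UMI, and Vwf, with 11 and 5, whose intervals take in 0. This choice was added after the data were seen.

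**Figure D5:**
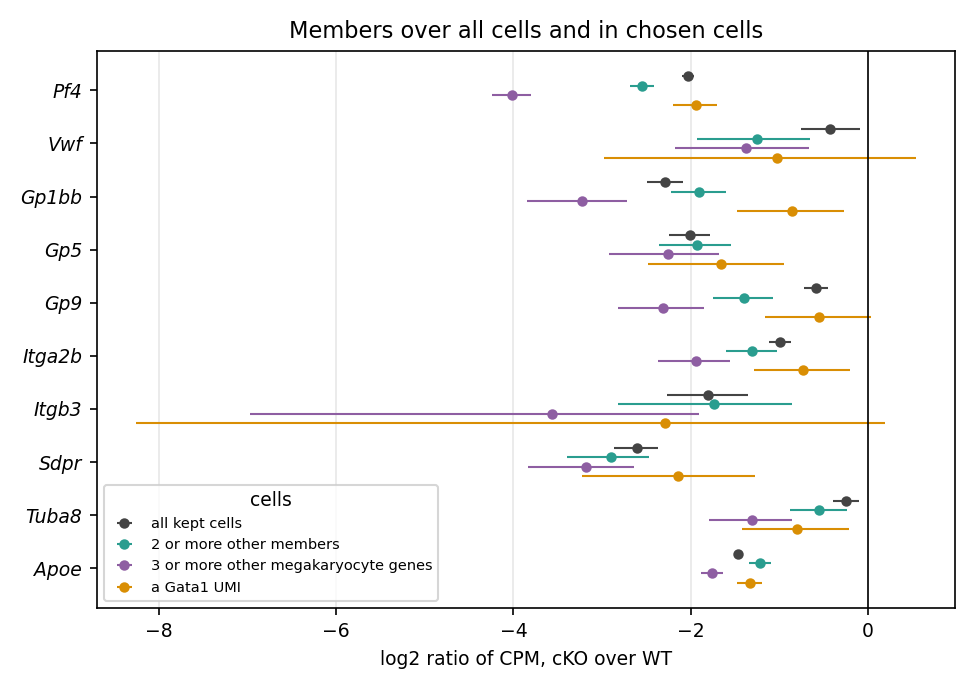
log2 ratio of CPM, cKO over WT, for each member over all kept cells and in 3 kinds of chosen cells, with 95% counting intervals; the vertical line marks no difference. Each point lies left of the line, and Pf4 moves from -2.03 over all cells to -4.01 in cells with 3 or more other megakaryocyte genes.

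Other compartments of the sort were set beside these, each from cells with 3 or more genes of a list. Among cells with 3 or more stem cell genes (195 in WT, 434 in cKO), Pf4 was at 83.0 CPM (61.6 to 109) in WT and 46.2 CPM (39.1 to 54.2) in cKO, and Sdpr at 24.9 and 1.85 CPM. Gp9 was at 54.8 and 17.5 CPM there, and Apoe at 553 and 221 CPM. For Vwf, by contrast, 4 UMIs lay in such WT cells and 33 in such cKO cells, or 6.64 CPM (1.81 to 17.0) and 10.2 CPM (6.99 to 14.3), so that its log2 ratio of 0.47 (-0.88 to 2.57) leaves the direction unsettled.

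Among cells with 3 or more granulocyte-monocyte genes (3000 in WT, 201 in cKO) Apoe was at 148 and 29.9 CPM. Tuba8 was higher in cKO there, at 8.71 CPM (7.47 to 10.1) in WT and 17.9 CPM (13.5 to 23.4) in cKO, which gave a log2 ratio of 1.05 (0.58 to 1.49). Itga2b was at 11.5 and 14.95 CPM in these cells, a log2 ratio of 0.39 (-0.11 to 0.84). The low level of Itga2b and Tuba8 in cKO over all cells was thus not seen in this compartment. Pf4 was lower in cKO there, at 15.5 and 4.98 CPM, a log2 ratio of -1.59 (-2.49 to -0.89), as was Gp9, at -1.05 (-2.38 to -0.11). Gp1bb and Sdpr had no UMI in these cKO cells, against 56 and 37 UMIs in the WT cells. The intervals of Gp5, Itgb3 and Vwf took in 0. Cells with 3 or more basophil and mast cell genes were rare, 20 in WT and 21 in cKO, with Itga2b at 95.1 CPM (47.5 to 170) and 200 CPM (120 to 312).

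Cell types outside the sort that make Apoe or Vwf were looked for by their markers. Of 10 macrophage markers none was at 0 and 1 reached 5 CPM, Cd68, and the list summed to 29.8 CPM in WT and 11.3 CPM in cKO. Cells with 2 or more of these markers numbered 3 in WT and 4 in cKO and held 0% and 0.241% of the thinned Apoe UMIs. Of 8 endothelial markers none was at 0, and the list summed to 207 CPM in WT and 234 CPM in cKO, most of it Egfl7, which stem cells also transcribe. Cdh5, which defines endothelial cells, had 2 UMIs in each library. Cells with 2 or more endothelial markers made up 2.78% of WT and 2.21% of cKO cells. They held 4.55% and 6.12% of the thinned Vwf UMIs, from 2 cells in each library. Few of these markers reached 5 CPM, so cells of these types could be missed at this depth. Their part in the Apoe and Vwf values was not tested.

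The cells with 3 or more members were also described by the other genes that led them. In WT these included F2r, Mfsd2b, Rab27b, Gata1, Cd9, Aqp1, Rap1b, Slc14a1 and Zfpm1, ranked by the log2 fold of the chosen over the other cells with 10 CPM added. In cKO they included Fcer1a, Gata1, Fgf3, Gfi1b, Smim5, F2r, Usp40, Gata2 and Chpt1. Gata1 and F2r were on both lists. Gata1, whose product drives megakaryocyte genes, was at 84.6 CPM in the chosen WT and 68.6 CPM in the chosen cKO cells, against 11.9 and 6.20 CPM in the others. Rab27b, which acts in granule release, was at 66.1 CPM in the chosen WT and 16.0 CPM in the chosen cKO cells. Only 61 cKO cells stood behind the cKO list, and 1 cell gave 44.7% of the Fcer1a and 76.3% of the Chpt1 UMIs. Fcer1a and Gata2 are also basophil and mast cell genes, and 2 or more genes of that list were found in 17 of the 399 WT and 5 of the 61 cKO cells. Without such cells the log2 ratio of the share with 3 or more members was -2.88, in an alternative added after the data were seen.

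Other megakaryocyte and platelet genes moved in both directions. Of 48 other such genes, 30 reached 5 CPM, with a median log2 ratio of -0.22, and 3 of these were lower in cKO by 1 or more and 1 higher, beside 5.18% and 2.87% of all genes at that level. The lower ones were F13a1, the clotting factor XIII A chain (60.7 and 0.718 CPM, log2 ratio -6.39, 5 CPM reached in WT only), Plek, a substrate of protein kinase C (41.3 and 10.9 CPM, -1.92), and Slc14a1, a urea transporter (11.5 and 5.06 CPM, -1.18). Next came Nrgn at -0.95 and Gng11, a G protein subunit, at -0.70. F13a1 and Plek are also transcribed by myeloid cells, and cells with granulocyte-monocyte genes were 37.7% of WT and 2.40% of cKO cells, but their part in these values was not tested. At the other end were Esam, an adhesion protein of platelets and stem cells (18.7 and 51.6 CPM, 1.46), F2rl3, the thrombin receptor PAR4 (19.9 and 33.9 CPM, 0.77), Lat (0.41), Tmem40 (0.32) and Pear1 (0.25). Of the 18 genes under 5 CPM, 16 had a ratio, with a median of -0.98, and 8 were lower by 1 or more and 1 higher. Among all genes with 1 UMI or more, which takes in such low levels, 18.8% were lower and 6.25% higher by that much. Among the 8 lower genes were Treml1, a receptor of platelet granules (4.35 and 0.479 CPM, log2 ratio -3.17, -3.70 to -2.69), and Clec1b, the podoplanin receptor of platelets (-2.67, -3.69 to -1.81), whose ratios were near or below that of Sdpr. Some genes known from late megakaryocytes were at or near 0, with 0 UMIs of Gp6 in both libraries and 0 and 1 UMIs of Tubb1. Whether the 10 members differ from these 48 beyond chance was not tested, since the members were chosen with results of these libraries known.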

How the data were processed

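Libraries were grouped by the genotype in the labels, 1 per group. The authors deposited UMI counts, by gene and by cell barcode, made on GRCm38 with Cell Ranger 6.0.0, per the submitters' processing notes. The labels name the v2 and the study the v3 reagent kit. The limits of the study were applied: over 200 genes in both libraries, under 4000 genes and 10% mitochondrial UMIs in WT, under 4500 genes and 5% in cKO, and under 5% hemoglobin UMIs. Doublets were marked as the barcodes with the most simulated doublets among 50 neighbours (20 components of 1500 variable genes), at 0.8% per 1000 barcodes, so 7.09% (WT) and 7.41% (cKO) of barcodes. Cells were thinned to 2000 UMIs for shares, which left out 197 WT and 104 cKO cells.

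CPM (UMIs of a gene in 1000000 UMIs) were computed from UMIs summed over cells. A prior count of 0.5 entered each log2 ratio. Exact intervals (scipy 1.17.1) were Poisson for a CPM, binomial on the summed count for a ratio, and Clopper-Pearson for a share, and ratios of shares used a normal approximation. Where no cell had a UMI, the limit is 3 cells of those counted. No p-value was computed, as each group holds 1 library. Scripts ran in Python 3.11 with numpy 2.4.6 and were tested on simulated data.

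The members, gene lists and choices of cells were made with earlier results of these data known. The genes named are the 10 members, the 10 other genes with the highest fold in cells with 3 or more members in each library (50 CPM or more), the 5 highest and 5 lowest of the other platelet genes (5 CPM or more) and Trmt6, except where a result is not reported here. Kit, Ly6a, Gata1, Gp1ba, Treml1, Clec1b, Gp6, Tubb1 and marker genes of other cells were named in addition, after their values were seen. Gene positions are from GENCODE M21, matched by gene ID, and promoters from RefSeq on GRCm38.p6. Alternatives were other cell limits, no doublet removal, other scalings, other depths and other choices of cells or members.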

Additional observations from a re-analysis of the deposited data

How the results depend on the processing

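No paired analysis was possible because each group has 1 library, and for the same reason no replicate could be left out. The members' median log2 ratio over all kept cells, -1.63, lay between -1.90 and -1.51 in the 8 alternatives, and the furthest value, -1.90, came from leaving out Apoe and Tuba8. For single members, 69 of 70 values under other limits, scalings and depths were below 0, and the exception was Vwf at 2000 UMIs per cell. The shares of genes lower and higher in cKO by 1 or more on the log2 scale, 5.18% and 2.87% at 5 CPM or more, were 18.8% and 6.25% among genes with 1 UMI or more. The shares of cells moved with depth and with the number of genes asked for. The log2 ratio of the share with 3 or more members, -2.78, was -3.66 at 1000 UMIs per cell, -0.44 on all UMIs, -1.53 with 2 or more and -3.73 with 4 or more members, -4.02 without Apoe and Tuba8, and -3.40 without Apoe only, an alternative added after the data were seen. That of the share with 3 or more other megakaryocyte genes, -1.51, was -2.80 at 1000 UMIs, -0.83 at 3000 UMIs, -0.72 with 2 or more and -2.18 with 4 or more genes, and turned to 0.96 on all UMIs, where cKO cells are deeper. The members' median in cells chosen by other members, -1.57, was -2.13 on all UMIs, and that in cells with other megakaryocyte genes, -2.28, was -1.18 in cells with a Gata1 UMI, also added later. The cause of the moves was not tested beyond the change of depth or choice that made them. Depth limits members at about 1 UMI per positive cell, above all Itgb3 and Vwf, for which cells without a UMI cannot be called negative.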
